A study of Mus musculus with 4 samples.

Results

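Sorl1, Stxbp6, Cdc42bpg and Whrn are 4 of the 47729 gene rows of a count table of mouse induced regulatory T (iTreg) cells cultured with or without ferrous sulfate. They are genes of membrane trafficking and of the cytoskeleton, and they were chosen by their fall with iron in the read counts scaled to library size (CPM, scaled by the trimmed mean of M values, TMM) of these same 4 libraries. Their fall is therefore given as a description, without a test, and tests are given only for other genes. All 4 passed the filter on low counts, as did 13732 genes in all.

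Splenic CD4 T cells of C57BL/6 mice were stimulated and driven towards iTreg cells, which acquire the transcription factor Foxp3 in culture. The medium of every library held TGF-β at 5 ng/mL, IL-2 at 100 U/mL, and anti-IL4 and anti-IFNγ at 5 µg/mL each. The FeSO4 group received 50 µM ferrous sulfate for 4 days and the Mock group received PBS, with 2 libraries in each group. Per the study's methods the 2 pairs came from independent experiments, but the sources do not say which libraries shared one, and no label ties a library to an animal. The comparison asks which transcripts change when iron is added to differentiating iTreg cells, in a culture model and not in regulatory T cells taken from a tissue.

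The proteins act at different places in the cell. Sorl1 encodes SORLA, a type I transmembrane receptor with a VPS10P domain that binds retromer and other sorting adaptors and moves cargo such as the amyloid precursor protein between the endosome, the trans-Golgi network and the cell surface. Stxbp6 encodes amisyn, a small protein with a SNARE motif that binds syntaxins and restrains vesicle fusion at the plasma membrane. Cdc42bpg encodes MRCKγ, a serine/threonine kinase of the DMPK family that binds active Cdc42, and its relatives phosphorylate regulators of myosin light chain. Whrn encodes whirlin, a scaffold with PDZ domains that is known from the stereocilia of hair cells and from photoreceptors, where its loss underlies forms of deafness and Usher syndrome.

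The gene rows of a library held 35183187 to 40859178 reads. A count of 3, the most that a count of 0 allows, stood for 0.0717 to 0.0876 CPM. Of the markers of the labelled cells, Foxp3 had 23802 and 28997 reads in Mock and 12869 and 17458 in FeSO4, Cd3e had 11136 to 12806 and Cd4 had 22973 to 25605. Foxp3 was lower with FeSO4 (log2 fold change -0.59, edgeR adjusted p = 0.000223), as was Ikzf2, which encodes Helios (-0.79, adjusted p = 0.000986), and Cd28 was higher (0.21, adjusted p = 0.0475), while the other 4 of the 7 markers of CD4 and regulatory T cells were not called, against 9.17% lower and 10.9% higher of all tested genes. Mock replicate 1 stood apart in transcripts of other cell types: Krt8 had 784 reads there against 4 to 16 in the other libraries, Lyz2 had 164 against 0 to 8, and Igkc had 156 against 3 to 8. The summed level of the 4 epithelial markers was 39.6 and 13.5 CPM in the Mock libraries and 19.1 and 13.2 CPM with FeSO4, and that of the 5 B cell markers was 7.22 and 2.65 CPM against 2.66 and 2.59 CPM. Of the other myeloid markers, Csf1r, Cd14 and Itgax had 7, 4 and 3 reads in Mock replicate 1 and 0 in the other libraries. Adgre1 had 8 reads there against 12 to 29 elsewhere. The 6 myeloid markers summed to 98.1 and 88 CPM in Mock against 116 and 118 CPM with FeSO4. Nearly all of this sum was Cst3, which was higher with FeSO4 (0.37, edgeR adjusted p = 0.00148). The erythroid marker Hba-a1 was higher as well (0.66, adjusted p = 0.000731). Of the epithelial markers Epcam (-1.72, adjusted p = 0.0232) and Krt8 (-5.08, adjusted p = 0.0145) were called lower, Epcam having 231 and 67 reads in Mock against 37 and 41 with FeSO4. Krt18 (-1.11, edgeR adjusted p = 0.386) and Cdh1 (0.21, edgeR adjusted p = 0.43) were not called. Outside Mock replicate 1 most of the epithelial sum was Cdh1, at 11.7 CPM in Mock replicate 2 and 17.4 and 11.5 CPM with FeSO4. The 5 stromal and endothelial markers summed to 58.6 and 62.4 CPM in Mock and to 44.7 and 52.4 CPM with FeSO4, nearly all of it Pecam1, a surface protein of endothelial cells and of some leukocytes, which was lower (-0.34, adjusted p = 0.0165). No marker of CD8 T or B cells was called, and both NK cell markers were at 0 in every library. Of the 10 markers of naive or resting T cells, 6 were lower and 3 higher in FeSO4, against 9.17% and 10.9% of all tested genes. Their summed level was 2367 and 2409 CPM in Mock against 2075 and 2435 CPM with FeSO4. The part of these cell types in the values of Sorl1, Stxbp6, Cdc42bpg and Whrn was not tested, beyond giving each value without Mock replicate 1. In bulk RNA, fewer cells that express a gene and less of its RNA per cell cannot be told apart.

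The 4 genes were chosen by their fall, so their falling together is not a result. The 250 bases before the start site were read for those with an entry in the RefSeq promoter table (GRCm38.p6), which were Sorl1, Stxbp6 and Whrn. They are printed 5′ to 3′ on the strand of the gene, the start site being the base that follows the last one. Capitals mark matches, on either strand, to 4 sets of letters chosen with the values known: ACGTG and GCGTG, the core letters bound by hypoxia-inducible factors, CACGTG, the palindromic E-box that holds ACGTG on both strands, and GGGCGG, the GC box. The windows lie at chr9:42124298-42124547, chr12:45074484-45074733 and chr4:63495992-63496241, all on the minus strand. That of Sorl1 abuts the RefSeq span of the gene given below. The Stxbp6 window lies wholly and the Whrn window partly inside the span of its gene, so their start sites are not the outermost ones.
Sorl1: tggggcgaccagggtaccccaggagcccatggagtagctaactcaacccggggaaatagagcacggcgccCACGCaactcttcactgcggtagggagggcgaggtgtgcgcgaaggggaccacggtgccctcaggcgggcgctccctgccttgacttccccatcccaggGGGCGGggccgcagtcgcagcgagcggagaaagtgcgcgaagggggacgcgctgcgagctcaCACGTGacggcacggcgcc
Stxbp6: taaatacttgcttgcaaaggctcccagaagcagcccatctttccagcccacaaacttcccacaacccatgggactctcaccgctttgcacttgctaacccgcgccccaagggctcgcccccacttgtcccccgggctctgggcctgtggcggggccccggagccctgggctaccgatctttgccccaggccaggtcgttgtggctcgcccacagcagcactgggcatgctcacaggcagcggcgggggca
Whrn: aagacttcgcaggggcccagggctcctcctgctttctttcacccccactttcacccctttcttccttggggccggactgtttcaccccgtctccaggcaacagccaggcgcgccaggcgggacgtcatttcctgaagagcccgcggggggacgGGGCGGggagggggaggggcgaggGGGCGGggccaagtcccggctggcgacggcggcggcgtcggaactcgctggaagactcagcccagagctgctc

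The Sorl1 window held 1 CACGTG starting 19 bases before the start site, 1 GCGTG on the opposite strand (printed CACGC) starting 180 bases before it, and 1 GGGCGG starting 81 bases before it. Among all 32851 windows of the table, CACGTG occurred in 6.02%, ACGTG or GCGTG in 38.6% and GGGCGG in 32.7%. The Whrn window held GGGCGG at 2 places, 97 and 73 bases before the start site, and none of the other letters, and the Stxbp6 window held none of the 4. The windows were rich in G and C, with 69.6% for Sorl1, 65.2% for Stxbp6 and 69.6% for Whrn against a median of 52.4% over all windows. A second RefSeq start site of Sorl1 had a window of 47.2% G and C, which held GCGTG at 2 places on the opposite strand and none of the other letters. No set of letters was thus in all 3 windows, and a match is a run of letters, not a site shown to be bound.

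Sorl1 (ENSMUSG00000049313) spans 159.6 kb of the minus strand of chromosome 9 (41964709 to 42124297, RefSeq GRCm38.p6), with up to 48 exons per transcript. In the Mock libraries it had 1372 and 1545 reads (replicates 1 and 2, the order used throughout), and in the FeSO4 libraries it had 480 and 591. On the CPM scale this was 33.8 (95% counting interval 32.0 to 35.7) and 36.9 (35.1 to 38.8) in Mock, and 14.0 (12.8 to 15.3) and 16 (14.7 to 17.3) in FeSO4. The groups did not overlap: the lowest Mock library lay 1.08 above the highest FeSO4 library on the log2 scale, whereas the libraries of a group differed by 0.13 in Mock and 0.19 in FeSO4. The mean went from 35.4 ± 2.21 CPM to 15 ± 1.38 CPM (SD, n = 2), a log2 fold change of -1.24 ± 0.11 (SE) or a level 2.36-fold lower. Exons of the annotated transcript Gm16214 overlap those of Sorl1, so some of its reads may be lost or gained.

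Stxbp6 (ENSMUSG00000046314) lies on the minus strand of chromosome 12 (44852484 to 45075118), with up to 7 exons over 222.6 kb. It had 616 and 1014 reads in Mock and 173 and 246 reads in FeSO4. These counts were 15.2 (14.0 to 16.4) and 24.2 (22.8 to 25.8) CPM in Mock, against 5.05 (4.33 to 5.86) and 6.65 (5.84 to 7.53) CPM in FeSO4. Stxbp6 varied most between replicates of the 4 genes, with Mock replicate 2 above Mock replicate 1 by 1.6-fold and FeSO4 replicate 2 above FeSO4 replicate 1 by 1.32-fold, each value lying outside the counting interval of the other. The groups were still 1.19 apart on the log2 scale at their nearest libraries. The mean went from 19.7 ± 6.41 CPM to 5.85 ± 1.13 CPM (SD, n = 2), a log2 fold change of -1.75 ± 0.21 or a level 3.36-fold lower. Leaving out Mock replicate 1 gave -2.05, and leaving out Mock replicate 2 gave -1.37, so the size of the fall in Stxbp6 depended on the Mock library used.

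Cdc42bpg (ENSMUSG00000024769) is the most compact of the genes, with up to 37 exons in 19.4 kb of the plus strand of chromosome 19 (6306253 to 6325653). It had 768 and 778 reads in Mock and 271 and 300 reads in FeSO4. The CPM values were 18.9 (17.6 to 20.3) and 18.6 (17.3 to 20.0) in Mock, and 7.91 (7.0 to 8.91) and 8.10 (7.21 to 9.08) in FeSO4. Replicates of Cdc42bpg lay within each other's counting intervals in both groups, and the nearest libraries of the groups were 1.20 apart on the log2 scale. The mean went from 18.8 ± 0.229 CPM to 8.01 ± 0.137 CPM (SD, n = 2), a log2 fold change of -1.23 ± 0.14 or a level 2.34-fold lower.

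Whrn (ENSMUSG00000039137) occupies 81.18 kb of the minus strand of chromosome 4 (63414908 to 63496083) and has up to 13 exons. It had 675 and 701 reads in Mock and 219 and 298 reads in FeSO4. The CPM values were 16.6 (15.4 to 17.9) and 16.8 (15.5 to 18.1) in Mock, and 6.39 (5.57 to 7.30) and 8.05 (7.16 to 9.02) in FeSO4. The Mock libraries were alike for Whrn, whereas FeSO4 replicate 2 was 1.26-fold above FeSO4 replicate 1, and the groups were 1.05 apart at their nearest libraries on the log2 scale. The mean went from 16.7 ± 0.0895 CPM to 7.22 ± 1.17 CPM (SD, n = 2), a log2 fold change of -1.20 ± 0.15 or a level 2.30-fold lower.

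**Figure D1:**
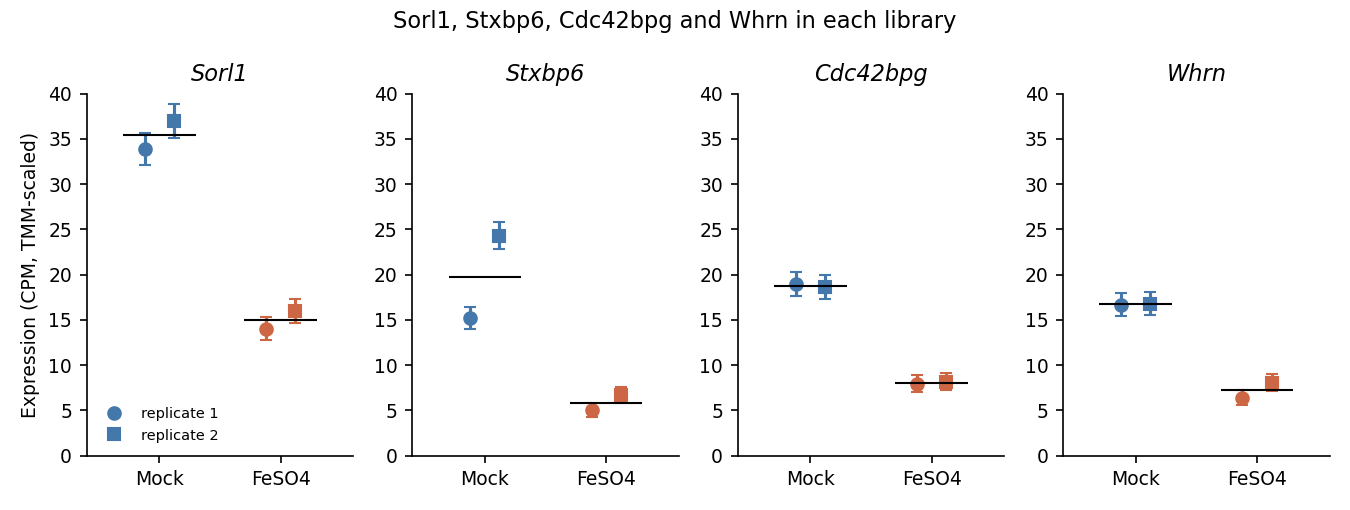
Each panel plots the CPM (linear axis from 0) of 1 gene in the Mock and FeSO4 libraries. Points are libraries with 95% counting intervals and the horizontal bars are group means. In each panel both FeSO4 libraries lie below both Mock libraries, and the Mock libraries of Stxbp6 (15.2 and 24.2 CPM) are the widest apart.

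In all 4 genes both FeSO4 libraries were below both Mock libraries, an arrangement that 29.4% of all tested genes showed and that the choice of the genes fixed in part. Among the 8522 tested genes whose mean over the libraries was 10 CPM or more, Stxbp6, Sorl1, Cdc42bpg and Whrn held places 2 to 5 from the most negative log2 fold change. Sox4 alone preceded them, at -2.47. Just past Whrn, at -1.20, came Tnik at -1.17 and Rgs12 at -1.13, so no gap separated the 4 genes from those that followed. Over all 13732 tested genes Stxbp6 was at place 177, Sorl1 at 371, Cdc42bpg at 373 and Whrn at 388, the genes added ahead of them having means under 10 CPM.

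**Figure D2:**
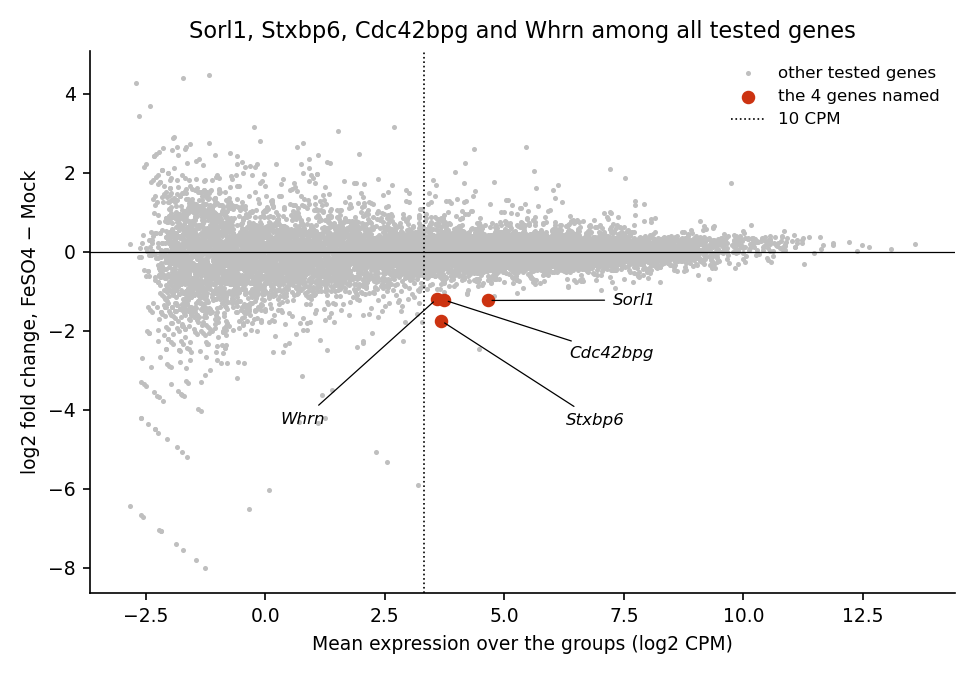
Each point is 1 of the 13732 tested genes, with its mean level (log2 CPM) on the horizontal axis and its log2 fold change, FeSO4 minus Mock, on the vertical axis. The dotted line stands at 10 CPM, and to its right the 4 named genes, at -1.20 to -1.75, lie at the lower edge of the cloud.

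Per kilobase of exon the levels were close to each other. CPM per kilobase of the union of exons (RPKM) were in Mock 4.06 ± 1.32 for Stxbp6, 3.13 ± 0.196 for Sorl1, 3.08 ± 0.0376 for Cdc42bpg and 2.27 ± 0.0122 for Whrn (SD, n = 2). The first 3 did not differ beyond their spread, and both Whrn libraries were below those of the other genes. With the length of its longest transcript in place of the exon union, the Whrn level in Mock became 4.12 RPKM against 3.13 RPKM for Cdc42bpg, so its place in the order depends on which transcripts are expressed. In FeSO4 the RPKM levels were 1.32 ± 0.122 for Sorl1, 1.31 ± 0.0225 for Cdc42bpg, 1.20 ± 0.232 for Stxbp6 and 0.983 ± 0.160 for Whrn.

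The pattern over the 4 libraries was nearly the same in 3 of the genes. As a measure of likeness, the distance between log2 CPM profiles, each centred on its own mean, was 0.133 between Sorl1 and Whrn, 0.154 between Sorl1 and Cdc42bpg and 0.212 between Cdc42bpg and Whrn. Stxbp6 was 0.639 to 0.748 away from the others, with its larger fall and its wider spread. Among 7960 other genes of 10 CPM or more, those with only a clone or model number for a symbol or with no symbol being passed over, the nearest to Sorl1 were Tnik (0.203), Zfp827 (0.210) and Rreb1 (0.235). Nearest to Cdc42bpg were Myh10 (0.144), Tnik (0.150) and Rgs12 (0.175), and nearest to Whrn were Zfp827 (0.262), Myh10 (0.286) and Tnik (0.307). Tnik, a kinase that acts on the actin cytoskeleton and in Wnt signalling, had 34.0 and 37.2 CPM in Mock against 16.3 and 15.4 CPM with FeSO4. Myh10, a heavy chain of non-muscle myosin II, had 17.3 and 16 CPM in Mock against 7.79 and 7.70 CPM with FeSO4. Of these 7960, the closest to Stxbp6 were Tnik (0.760), Rreb1 (0.80) and Folr4 (0.80). These distances rest on 4 libraries and describe only the same fall that chose the genes.

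Whether the relatives and partners of the 4 genes moved was asked of 135 genes in 8 lists, made from known families and interactions. Of these, 134 were matched to the table and 110 were tested: 14 (12.7%) were lower and 11 (10%) higher with FeSO4 (adjusted p under 0.05, edgeR's quasi-likelihood test with Benjamini-Hochberg adjustment over all genes). Over all tested genes the shares were 9.17% lower and 10.9% higher, so the related genes as a whole were near the background. Without FeSO4 replicate 1 fewer genes were called, both among the related genes and among all tested genes. In every such fit the group of the library left out holds 1 library, which is assumed to vary like those of the other group, so a call that is lost or gained there cannot be ascribed to that library alone. Without the filter on low counts only Sorcs2, Pacs1, Espn, Myh9 and Dock8 were called lower and Snx5, Unc13a and Stx11 higher. Calls over all genes were fewer there too, with 304 lower and 524 higher of 22164 tested. In the edgeR fit used throughout, the 110 related genes had a median log2 fold change of -0.02, against -0.00052 for all tested genes. Of the 110, 2 had a log2 fold change as negative as that of Whrn. These were Unc13b at -1.32 and Pdzd7 at -1.31, neither of them called and both on 6 to 37 reads per library.

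**Figure D3:**
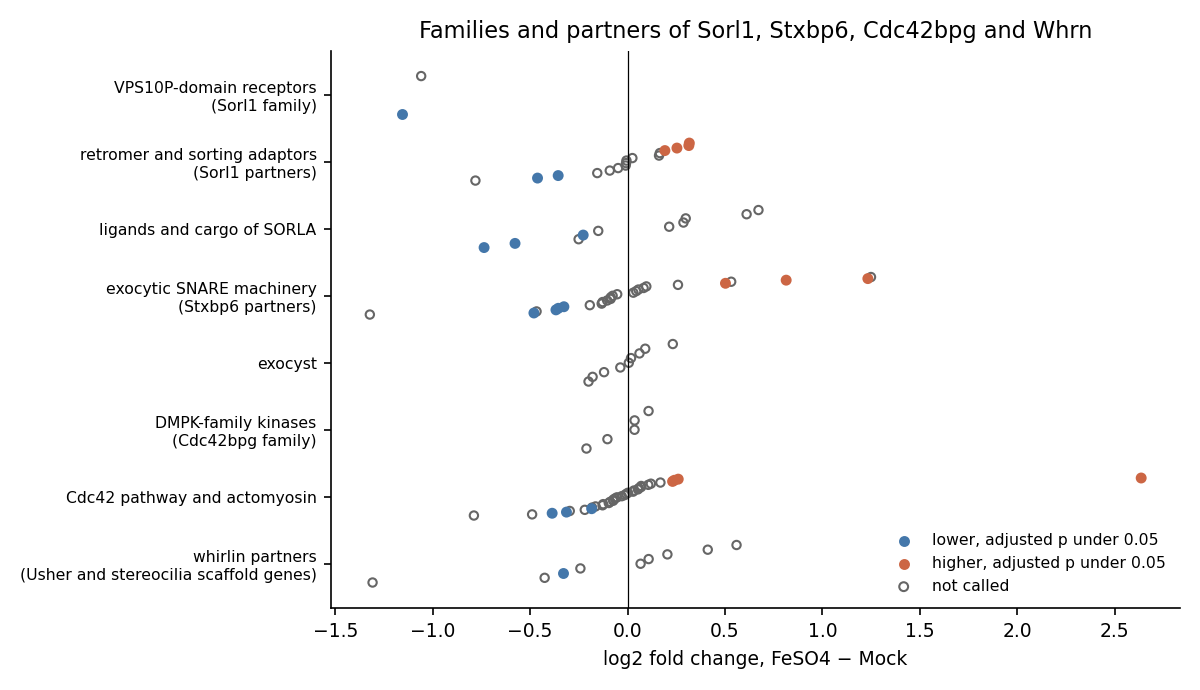
Each row is a list of relatives or partners, and points are the log2 fold changes (FeSO4 minus Mock) of its tested genes, coloured by whether they were called lower, higher or not called. The tested genes of most lists lie around 0, with medians from -0.08 to 0.07, apart from the 2 tested receptors of the Sorl1 family.

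Of the VPS10P-domain receptors, the family of Sorl1, Sorcs2 fell as well. It had 12 and 11.8 CPM in Mock against 4.17 and 6.46 CPM with FeSO4, with a log2 fold change of -1.16 ± 0.19 (edgeR adjusted p = 0.000407). SorCS receptors are, like SORLA, endosomal and cell surface sorting receptors, and SorCS2 is best known from neurons. Leaving out FeSO4 replicate 1 gave -0.88 for Sorcs2 and leaving out FeSO4 replicate 2 gave -1.51, both still called. Sorcs1 had only 32 and 43 reads in Mock and 22 and 9 in FeSO4, and its log2 fold change of -1.06 ± 0.55 was not called (edgeR adjusted p = 0.193). Sort1, which encodes sortilin, did not pass the filter with 43 and 4 reads in Mock and 0 and 8 in FeSO4, and Sorcs3 had no reads. Without Mock replicate 2 Sort1 passed the filter and was called lower (-3.20, edgeR adjusted p = 0.0148), its Mock level then resting on the 43 reads of Mock replicate 1. Sorl1 was thus the most abundant of the tested receptors per length, Sorcs2 having 1.37 and 1.34 RPKM in Mock and 0.474 and 0.733 RPKM in FeSO4.

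SORLA binds retromer and its adaptors. Of 16 tested genes of this machinery, 2 were lower (12.5%, against 9.17% of all genes) and 4 higher (25%, against 10.9%), with a median log2 fold change of -0.01. Pacs1, an adaptor for return to the trans-Golgi network, was lower, at -0.46 ± 0.06 (edgeR adjusted p = 9.2e-05) and Snx27, which links retromer to PDZ-binding cargo, at -0.36 ± 0.08 (adjusted p = 0.00601). Vps29, a subunit of retromer, was higher by 0.32 ± 0.08 (adjusted p = 0.0082) and Snx5, a sorting nexin with a BAR domain, by 0.31 ± 0.06 (adjusted p = 0.00164). Snx6 (0.25) and Snx2 (0.19), also sorting nexins with a BAR domain, were the other 2 that were higher. With libraries scaled by size only, 2 were lower and 2 higher (Snx5 and Vps29), against 1810 lower and 980 higher of all 13732 tested genes. Snx27 was no longer called without Mock replicate 2 (-0.22, adjusted p = 0.0849), nor Vps29 without FeSO4 replicate 1 (0.25, adjusted p = 0.128). The count of higher genes fell from 4 to 1 without FeSO4 replicate 1, leaving Snx5, and to 2 without Mock replicate 1 or FeSO4 replicate 2, leaving Snx5 and Vps29. That of lower genes fell to 1, Pacs1, without Mock replicate 2.

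Of 18 ligands and cargo proteins of SORLA, 10 were tested, 3 were lower (against 9.17% of all genes) and none was higher (against 10.9%). They were Bace1, the β-secretase that cuts the amyloid precursor protein, at -0.58 ± 0.14 (edgeR adjusted p = 0.00658), Apoe, an apolipoprotein, at -0.74 ± 0.22 (adjusted p = 0.0249), and Il6ra, a subunit of the IL-6 receptor, at -0.23 ± 0.07 (adjusted p = 0.0246). Each of these 3 calls was lost in at least 1 fit with a library left out, and other genes were called there, on the spread of the other group alone. Apoe was -0.38 without Mock replicate 1 (adjusted p = 0.315) and -0.69 without FeSO4 replicate 2 (adjusted p = 0.0648). Bace1 kept a log2 fold change of -0.67 to -0.49 in these fits and was not called without FeSO4 replicate 1 (-0.49, adjusted p = 0.065), and Il6ra was -0.14 without Mock replicate 2 (adjusted p = 0.209) and -0.19 without FeSO4 replicate 1 (adjusted p = 0.185). Named after their values were seen, App, the amyloid precursor protein, Pdgfb, a growth factor, and Lrpap1, a chaperone of lipoprotein receptors, were called higher without Mock replicate 1 (0.93, 0.36 and 0.28, adjusted p = 0.0211, 0.0383 and 0.0412). App and Pdgfb were also called higher without FeSO4 replicate 2 (1.0 and 0.43), and Lpl, a lipase, was called lower without Mock replicate 2 (-3.51, adjusted p = 0.011), on the 34 reads of Mock replicate 1 against 1 and 4 with FeSO4.

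Stxbp6 acts on the SNARE machinery of exocytosis, of which 25 of 28 listed genes were tested, 4 being lower (16%, against 9.17% of all genes) and 3 higher (12%, against 10.9%) with a median log2 fold change of -0.08. Stx1a, a syntaxin of the plasma membrane, was lower, at -0.48 ± 0.09 (edgeR adjusted p = 0.00131). The other 3 that were lower were Stx2 (-0.36), Vamp1 (-0.37) and Vamp2 (-0.33). The count of lower genes fell from 4 to 2 without Mock replicate 1, leaving Stx1a and Vamp1, and to 2 without FeSO4 replicate 1, leaving Stx1a and Stx2. Among those that were higher were Unc13a, a factor that primes vesicles, by 1.23 ± 0.15 (adjusted p = 3.1e-05) and Stx11, a syntaxin of cytotoxic lymphocytes, by 0.50 ± 0.10 (adjusted p = 0.00151). None of the 9 tested genes of the exocyst, the complex that tethers vesicles before fusion, was called in the edgeR fit used throughout, by DESeq2 or by limma-voom, and 3 had an unadjusted p under 0.05 in edgeR. Without Mock replicate 1, Exoc4, named after its value was seen, was called lower (-0.25, adjusted p = 0.0366). Under the other scalings Exoc4 was called lower as well (-0.27 to -0.20), and Exoc3 was called with library size only (-0.24) and with the upper quartile (-0.20). Both were called where at least 10 counts were required in every library (-0.21 and -0.19).

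None of the 5 tested kinases of the family of Cdc42bpg was called in the edgeR fit used throughout, although Cit was called under other settings. Cdc42bpb, which encodes MRCKβ, had 9.74 and 10.4 RPKM in Mock and 9.76 and 8.98 RPKM in FeSO4, above Cdc42bpg in every library, and its log2 fold change was -0.10 ± 0.08 (edgeR adjusted p = 0.396). Cdc42bpa, which encodes MRCKα, was scarce, at 0.222 to 0.252 RPKM in all libraries, and its log2 fold change was 0.04 ± 0.22 (adjusted p = 0.935). Cit, the citron kinase of cytokinesis, was at -0.21 ± 0.07 (adjusted p = 0.0522). The sign for Cdc42bpa flipped when libraries were scaled by size only (-0.03) and without Mock replicate 1 (-0.06). Nor was any of the 5 called by DESeq2 or limma-voom, 1 had an unadjusted p under 0.05 in edgeR, and Cit was called lower without Mock replicate 1 (-0.26, adjusted p = 0.0418), under 3 other scalings and with at least 10 counts required in every library (-0.28 to -0.22). Dmpk, the kinase after which the family is named, did not pass the filter with 14 and 3 reads in Mock and 0 and 3 in FeSO4.

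**Figure D4:**
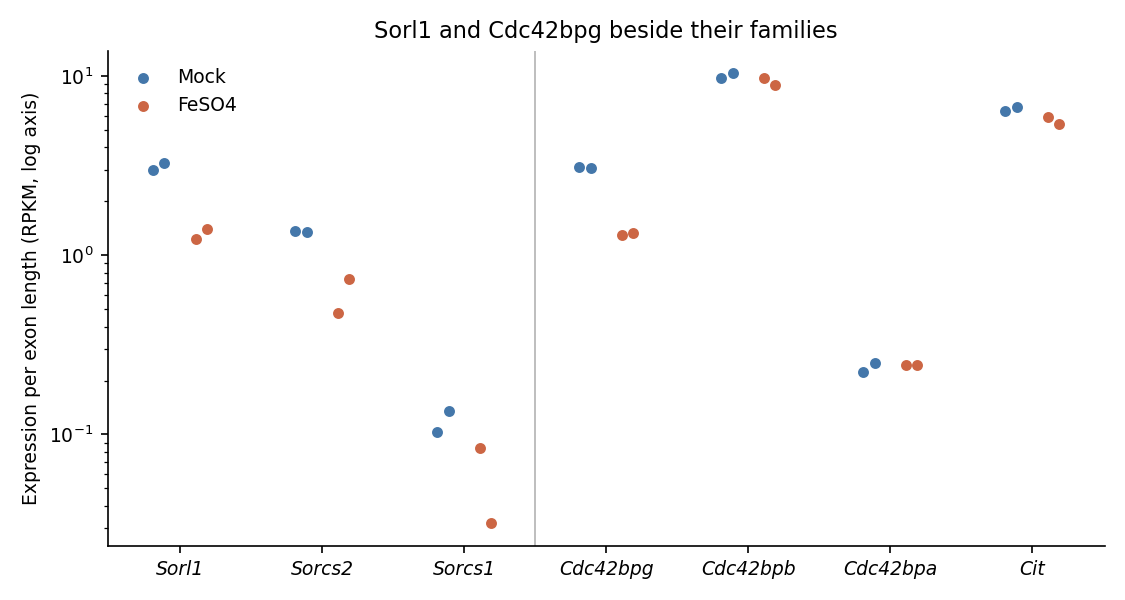
Levels per length (RPKM, log axis) are plotted for Sorl1 and the tested receptors of its family and for Cdc42bpg, Cdc42bpb, Cdc42bpa and Cit, with 1 point per library and Mock and FeSO4 in different colours. Sorl1, Sorcs2, Sorcs1, Cdc42bpg and Cit have both FeSO4 points below their Mock points, whereas the groups overlap in Cdc42bpa and Cdc42bpb.

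Cdc42 itself, its regulators and the actomyosin genes downstream of MRCK kinases were called in 7 of 34 tested cases, near the background, with 3 lower (8.82%, against 9.17% of all genes) and 4 higher (11.8%, against 10.9%) and a median log2 fold change of -0.04. With libraries scaled by size only, 7 were lower and 3 higher, against 1810 lower and 980 higher of all 13732 tested genes. Dock8, an exchange factor that activates Cdc42 in lymphocytes, was lower, at -0.39 ± 0.06 (edgeR adjusted p = 0.000433) and Myh9, the main heavy chain of non-muscle myosin II in lymphocytes, at -0.31 ± 0.06 (adjusted p = 0.00128). Cfl1, the actin-severing protein cofilin, was higher by 0.26 ± 0.06 (adjusted p = 0.0065). Cdc42ep1, an effector that binds active Cdc42, was higher by 2.64 ± 0.46 (adjusted p = 0.000778) on few reads, 23 and 13 in Mock against 66 and 129 in FeSO4. The others called were Cdc42 itself (0.24) and the myosin light chain Myl12a (0.23), both higher, and Arhgdib, an inhibitor of small GTPases, at -0.18. These 3 calls were lost in some fits with a library left out, and that of Myl12a also with libraries scaled by size only. Cdc42 was not called without Mock replicate 1 (0.19, adjusted p = 0.0528) or FeSO4 replicate 2 (0.21, adjusted p = 0.0836), nor Myl12a without FeSO4 replicate 1 (0.20, adjusted p = 0.119). Arhgdib was called neither without Mock replicate 1 (-0.17, adjusted p = 0.083) nor without FeSO4 replicate 1 or 2 (-0.18 in both, adjusted p = 0.176 and 0.164).

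The partners of whirlin were mostly scarce in these cells: of 16 genes of the Usher and stereocilia scaffolds, 9 passed the filter. Espn, which encodes the actin-bundling protein espin, was lower, at -0.33 ± 0.06 (edgeR adjusted p = 0.00166), which is 11.1% of the 9 against 9.17% of all genes, and the other 8 were not called, with a list median of 0.07; none was higher, against 10.9% of all genes. With a library left out, and the spread taken from the FeSO4 group alone, Eps8 was called higher without Mock replicate 1 (1.07, adjusted p = 0.0227) and Eps8l2 lower without Mock replicate 2 (-4.83, adjusted p = 0.0148), both named after their values were seen. Eps8l2 had 20 reads in Mock replicate 1 and 0 or 1 in each other library.

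The genes next to the 4 loci were examined as well, by a rule added with the values known: the nearest tested protein-coding gene on each side in the GENCODE M1 order. Nrcam, a neural cell adhesion molecule 250.5 kb away on the lower-coordinate side of Stxbp6, fell from 4.73 and 8.03 CPM to 1.14 and 1.24 CPM, a log2 fold change of -2.42 ± 0.33 (edgeR adjusted p = 8.53e-05). Like Stxbp6, Nrcam was higher in Mock replicate 2 than in Mock replicate 1. On the higher-coordinate side of Sorl1, Sc5d, an enzyme of cholesterol synthesis, rose from 62.4 and 61.1 CPM to 92.6 and 102 CPM (0.66 ± 0.08, adjusted p = 1.42e-05). Ubash3b, on the other side of Sorl1, was lower, at -0.36 ± 0.08 (adjusted p = 0.00325), and Atp6v1g1, next to Whrn, was higher by 0.36 ± 0.07 (adjusted p = 0.00133). The genes beside Cdc42bpg were Ehd1 at -0.29 (adjusted p = 0.037) and Men1 at 0.24 (adjusted p = 0.0323). The call of Ehd1 was lost without Mock replicate 1 (-0.24, adjusted p = 0.12) or FeSO4 replicate 2 (-0.12, adjusted p = 0.48), and that of Men1 with any 1 of the 4 libraries left out (0.20 to 0.29) and with libraries scaled by size only (0.18, adjusted p = 0.108). Akna, next to Whrn, and Gm1818, on the far side of Stxbp6 at 3480 kb, were not called, but Akna was called lower with libraries scaled by size only (-0.21, adjusted p = 0.0176). Without the filter on low counts the calls of Ubash3b (adjusted p = 0.0561), Ehd1 (adjusted p = 0.249) and Men1 (adjusted p = 0.114) were lost. Of the 8 neighbours, Nrcam alone had a log2 fold change beyond 1 in size.

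The fall of the 4 genes had nearly the same size under each way of scaling and filtering tried. With a single library left out, the log2 fold change ran from -1.33 to -1.14 for Sorl1, from -2.05 to -1.37 for Stxbp6, from -1.24 to -1.21 for Cdc42bpg and from -1.38 to -1.05 for Whrn. Without Mock replicate 1, the library with the reads of other cell types, the values were -1.31, -2.05, -1.22 and -1.22 in that order. Between libraries of the same number, the log2 ratios were -1.27 and -1.21 for Sorl1, -1.59 and -1.87 for Stxbp6, -1.26 and -1.20 for Cdc42bpg and -1.38 and -1.06 for Whrn.

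**Figure D5:**
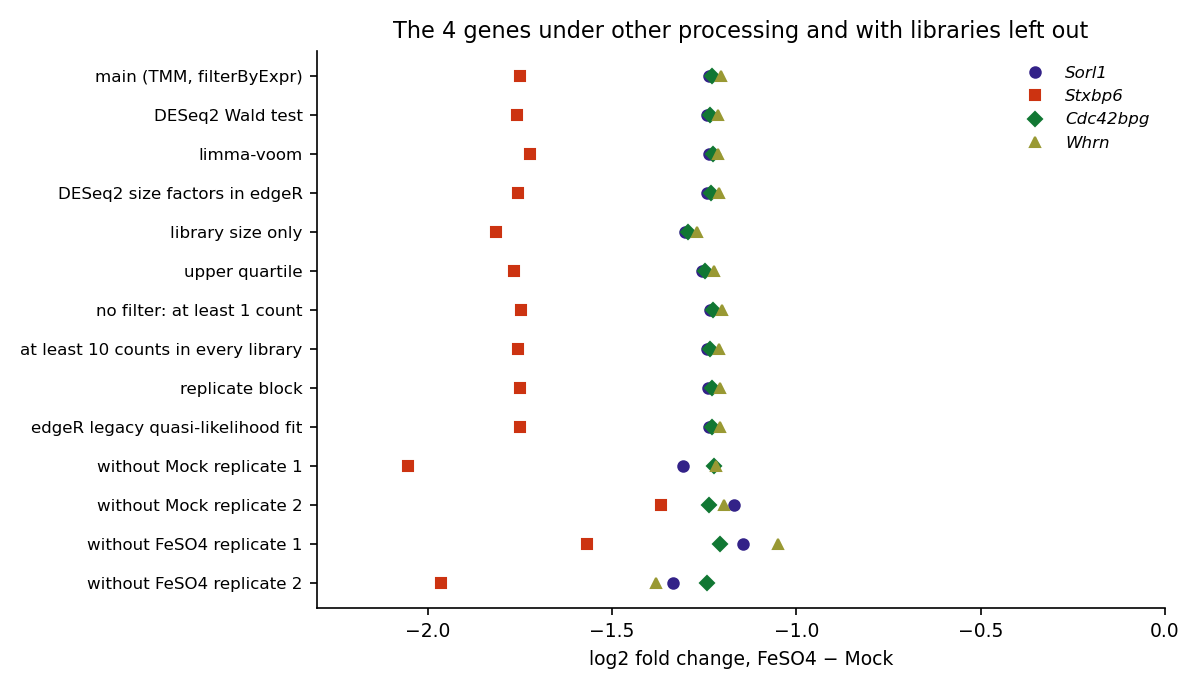
The log2 fold change (FeSO4 minus Mock) of each gene is plotted on the horizontal axis, with a row for each way of processing and for each library left out and a symbol for each gene. All points lie below -1, and those of Stxbp6 spread from -2.05 to -1.37 with the library left out.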

How the data were processed

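RNA-seq read counts per Ensembl gene, 1 column for each of the 4 libraries, were used as deposited by the authors, without normalization. The submitters' processing notes name Trim Galore 0.6.7, STAR 2.7.9a, featureCounts and the build mm10, whereas the methods name mm9, STAR and DESeq, and the table closes with unassigned rows as htseq-count writes them. The strand setting and annotation were not given in the sources used here. Unassigned rows (reads without a feature 4.36 to 6.027%, ambiguous reads 3.779 to 3.905%) were left out. Groups came from the labels.

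Genes were kept by filterByExpr (13732 of 47729), scaled by TMM and tested, FeSO4 against Mock, with edgeR 4.0.16 (quasi-likelihood F test, R 4.3.3), adjusted by Benjamini-Hochberg over all genes kept, with calls at an adjusted p under 0.05. The fit was tested on simulated data. SE is the size of the log2 fold change divided by the square root of F. For the 4 genes, chosen by this same contrast, the SE takes no account of that choice. Counting intervals are exact 95% Poisson intervals, which like the limit of 3 counts cover counting error only. Replicates differed beyond sampling noise (chi-square per degree of freedom 8.85 in Mock and 7.25 in FeSO4), and p-values measure the spread between these libraries, 2 per group (with a library left out, of the other group alone). Exon lengths and neighbours came from GENCODE M1 (NCBIM37), and gene positions, for orientation, from RefSeq. Named relatives came from a rule (all tested genes of both families, up to 4 called genes of smallest p from each other list), and 3 genes per member were named for likeness. Other related genes that the text names were added after their values were seen. Some genes that the rule takes are counted but not reported here by name. Alternatives were DESeq2 1.42.0, limma-voom 3.58.1, other scalings and filters, a replicate block, the study's threshold and each library left out. The 4 genes and the lists were chosen with earlier results of these data known.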

Additional observations from a re-analysis of the deposited data

How the results depend on the processing

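The log2 fold changes of Sorl1, Stxbp6, Cdc42bpg and Whrn stayed negative under every alternative. Scaling by library size only shifted the median of all genes by -0.065, gave -1.29 for Cdc42bpg, 1810 lower and 980 higher calls (35.1% higher among all calls against 54.2%), 22 related genes lower, and -0.029 for Cdc42bpa. Without a filter, 22164 genes were tested, with 304 lower and 524 higher calls and 5 related genes lower and 3 higher. With the study's threshold (unadjusted p under 0.05 and a log2 fold change of at least 0.5 in size), 787 genes were lower and 641 higher (44.9% higher), and of the related genes 4 were lower and 7 higher. With a library left out, calls ranged from 710 to 1158 lower and from 893 to 1199 higher, and related genes from 9 to 15 lower and from 7 to 11 higher. The lowest counts over all genes came without FeSO4 replicate 1. In the same fits Cdc42bpa ranged from -0.058 to 0.135. The edgeR legacy fit, added after the data were seen, gave 1221 lower and 1455 higher calls. The causes of these changes were not tested.

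The sources do not say whether libraries of the same number belong to 1 experiment, and no pairing was assumed: their deviations correlated with r = 0.036 across 13659 genes, which are not independent, and 0.22 across the 8522 genes of at least 10 CPM. With the replicate block, 1580 genes were lower and 1847 higher, and 19 related genes were lower and 17 higher, with Cit (-0.21), Exoc3 (-0.18) and Exoc4 (-0.20) among the lower and App (0.61), Pdgfb (0.28) and Lrpap1 (0.21) among the higher, and the neighbour Akna (-0.15) was called lower. Each SD comes from a pair of libraries, and the values of Sorcs1, Sort1 and Dmpk rest on 0 to 43 reads per library.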
